A study of Mus musculus with 24 samples.

Results

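The proximal end of the mandible was compared between mouse embryos that lacked Tgfbr2 in Wnt1-Cre cells and control littermates, on 6 single-colour expression arrays out of 24. The members were chosen by their labels alone: every array labelled mandible and proximal, 3 of them knockout and 3 control. Embryos of the C57B6 strain were dissected at embryonic day 12.5, and each jaw was cut into a distal and a proximal end, so that the other 18 arrays held the distal mandible and both ends of the maxilla. Knockout embryos came from matings of Wnt1-Cre;Tgfbr2 fl/+ with Tgfbr2 fl/fl mice and were recognised by a cleft palate and a calvarial defect. The labels do not state which genotype the control littermates had, so whether they carried Wnt1-Cre or a floxed allele is not known. Nor do they say whether different embryos gave the 3 arrays of a group, and every p-value below measures the spread between arrays only.

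Tgfbr2 encodes the type II receptor of TGF-beta, a serine-threonine kinase that binds the ligand and activates the type I receptor, which then phosphorylates Smad2 and Smad3. Wnt1-Cre is active in the neural crest, whose cells form the mesenchyme of the jaw, the glia of the cranial nerves and part of the neurons of the cranial sensory ganglia. Other sensory neurons of these ganglia arise from ectodermal placodes, and the epithelium, muscle cells and blood vessel lining of the jaw do not come from the crest, so those cells keep the receptor in this model. Sensory neurons are made by a cascade of transcription factors in which Neurog1 starts the programme, Neurod1 and the Nhlh factors follow in young neurons, and Pou4f1 and Isl1 mark the maturing sensory neuron.

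The deposited values are log2 signals per probe set, and 14879 genes passed a filter on low values and were tested. A gene was called when its adjusted p, from limma with Benjamini-Hochberg adjustment over those genes, was under 0.05. Unless stated, each SE and p comes from a fit to all 24 arrays, so it uses the spread within all 8 groups. Changes are given as knockout minus control on the log2 scale. The arrays had their 30th percentiles at 5.85 to 5.93, which serves here as a mark of background, in the absence of detection calls. Hand2, a mandibular mesenchyme factor, lay between 10.81 and 12.97 in the 6 arrays and between 4.87 and 8.28 in the 12 maxilla arrays.

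Knockout array 1 stood apart from the other knockout arrays. Alx1, a homeobox gene of the distal and frontonasal mesenchyme, read 6.24, 6.34 and 7.11 in the control arrays and 11.06, 6.16 and 6.68 in knockout arrays 1, 2 and 3. Control arrays of the distal mandible read 12.34, 12.61 and 12.72, and knockout arrays of the distal mandible 6.26, 10.79 and 11.91. Gbx2, a homeobox gene of the proximal arch, showed the opposite order, with 7.33, 7.56 and 8.35 in the controls and 4.74, 8.54 and 7.20 in the knockouts. Hoxa2, a gene of the second pharyngeal arch, which lies behind the mandibular arch, read 10.39, 10.51 and 8.37 in the controls and 5.41, 10.97 and 9.62 in the knockouts. Knockout 1 was therefore low in both proximal or posterior genes and high in the distal gene, as the distal control arrays were, although its label says proximal. After each gene was set against its mean over the 24 arrays, its profile correlated across genes with the other arrays of its own group at 0.44 and with the knockout distal mandible at 0.60, against 0.70 to 0.77 and at most 0.10 for the 3 control arrays. Knockouts 2 and 3 lay between, at 0.49 and 0.59 with their own group and 0.48 and 0.56 with the distal knockouts. Knockout array 1 of the distal mandible departed from its group in the other direction, with 6.26 for Alx1, 6.52 for Gbx2 and 9.99 for Hoxa2. Whether the labels of these arrays were exchanged was not tested. The labels were kept, and values without knockout 1 are given beside the main results. Control array 2 also differed, in the sex-linked genes: Eif2s3y, a gene of the Y chromosome, read 10.29 there and 3.66 to 3.88 in the other 5 arrays, and Xist, transcribed from the inactive X chromosome, read 6.74 there and 13.58 to 13.72 in the others. The same split by number held in the controls of all 4 regions, where the arrays numbered 2 gave 10.22 to 10.41 for Eif2s3y.

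The targeted gene was not lower in the knockout arrays. The brightest Tgfbr2 probe set read 12.16, 12.08 and 11.98 in the controls and 12.65, 12.17 and 12.32 in the knockouts. All 3 knockout arrays were above all 3 controls, by 0.31 (SE 0.23, limma adjusted p = 1.00), and by 0.17 without knockout 1. A second probe set of Tgfbr2, at 7.42 to 7.95 in the 6 arrays, differed by -0.07, and the remaining probe set lay below the 30th percentile in all 24 arrays. The position of these probes relative to the floxed part was not known here, so the probe sets do not check the labels. The cells outside the crest lineage, which keep the intact gene, share these samples.

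Of the other genes of the pathway, none was called. Among the ligands and latent binding proteins 12 were tested, 9 with a positive and 3 with a negative change, and their median change was 0.07. Over all genes tested 7433 changes were positive and 7446 negative, 50% each, and the median was -0.00015. Tgfb2, the ligand most tied to crest development in mouse mutants, differed by -0.04 (SE 0.15), Tgfb3 by 0.05 (SE 0.22) and Tgfb1 by 0.09 (SE 0.27), and each of these changed sign under at least 1 alternative. The 17 receptors, coreceptors and Smad genes had a median of -0.02, with 6 positive and 11 negative changes. Tgfbr3, the betaglycan coreceptor that presents TGF-beta2 to the type II receptor, read 11.81, 11.90 and 11.67 in the controls and 12.15, 12.01 and 12.29 in the knockouts, without overlap (difference 0.36, SE 0.22, limma adjusted p = 1.00). The type I receptor gene Tgfbr1 differed by -0.04 (SE 0.10). The 17 known target genes tested had a median of 0.03, with 11 positive and 6 negative changes. Smad7, the inhibitory Smad that TGF-beta induces, differed by -0.07 (SE 0.20), Skil, a Smad corepressor, by -0.10 (SE 0.07) and the matrix gene Postn by 0.34 (SE 0.22). In whole tissue, fewer cells of a type and less RNA per cell cannot be told apart, and cells that keep the receptor contribute to each value.

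Only 8 of the 14879 genes were called, which is 0.0538%, with 2 higher (0.0134%) and 6 lower (0.0403%) in the knockouts, and 425 genes (2.86%) had an unadjusted p under 0.05. Of the 6 that fell, 3 were transcription factors of young sensory neurons and 1, Ppp1r1c, an inhibitor of protein phosphatase 1, moved with them. The other 4 called genes, H2az2, Zfp33b, Mpg and 2610524H06Rik, changed by less than 0.6 and are described further on.

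Neurod1, the basic helix-loop-helix factor of differentiating neurons, read 9.79, 9.43 and 8.72 in the control arrays and 5.03, 6.10 and 4.85 in the knockout arrays. Every control was far above every knockout, and knockouts 1 and 3 lay below the 30th percentile of their arrays. Neurod1 fell by 3.98 (SE 0.50, limma adjusted p = 0.00336, n = 3 and 3), and its second probe set fell by 4.39.

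Nhlh2, a helix-loop-helix factor of postmitotic neurons, read 9.49, 8.99 and 8.07 in the controls and 5.08, 5.64 and 5.06 in the knockouts. The 3 knockout arrays were all below the 30th percentile, so the size of this difference is limited by background. It fell by 3.59 (SE 0.51, limma adjusted p = 0.00981).

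Pou4f1, the POU homeodomain factor Brn3a of sensory neurons, read 8.88, 8.37 and 8.05 in the controls and 5.14, 5.51 and 5.44 in the knockouts, all 3 of the latter at background. It fell by 3.07 (SE 0.48, limma adjusted p = 0.0185), and its second probe set fell by 3.54. Ppp1r1c read 9.89, 9.04 and 8.76 in the controls and 5.98, 6.62 and 6.01 in the knockouts, just above the 30th percentile. It fell by 3.03 (SE 0.51, limma adjusted p = 0.0214). In each of these 4 genes control array 1 was the highest and control array 3 the lowest of the controls, and knockout array 2 was the highest of the knockouts.

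**Figure D1:**
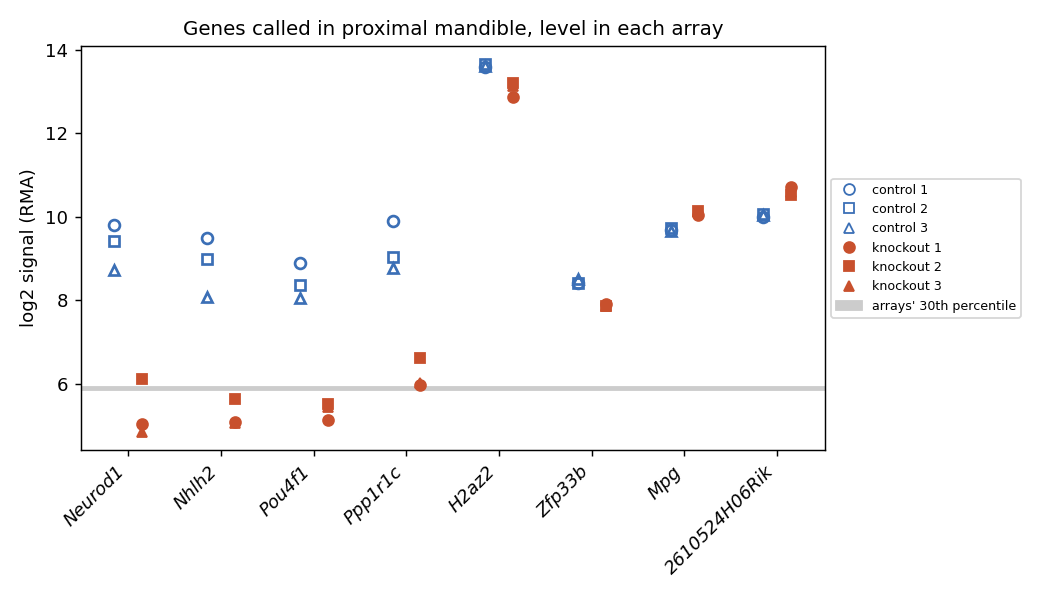
Level (log2 signal) of the 8 called genes in each proximal mandible array. Open symbols are the 3 controls and filled symbols the 3 knockouts, and the grey band is the range of the arrays' 30th percentiles. Neurod1, Nhlh2, Pou4f1 and Ppp1r1c lay between 8.05 and 9.89 in the controls and between 4.85 and 6.62 in the knockouts.

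The number of calls depended on single arrays. Without control 1 or without knockout 3, limma called 0 genes. Of the 14879 genes, 335 and 318 then had an unadjusted p under 0.05, against 425 (2.86%) with all arrays. Without knockout 1 or without control 2 it called 1 gene, Neurod1, and without control 3 it called Neurod1 and Nhlh2. Without knockout 2 it called 17 genes, among them Neurod1, Nhlh2, Pou4f1, Ppp1r1c, H2az2 and 2610524H06Rik of the 8. A fit to the 6 arrays alone called 0 genes, with 670 of the 14879 at an unadjusted p under 0.05. The sizes moved little: without knockout 1 the change was -3.83 for Neurod1 (limma adjusted p = 0.0466), -3.50 for Nhlh2 (adjusted p = 0.102), -2.96 for Pou4f1 (adjusted p = 0.127) and -2.92 for Ppp1r1c (adjusted p = 0.202).

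The promoter windows of these 4 genes are shown because Neurod1, Nhlh2 and Neurog1 belong to the helix-loop-helix family, which binds the E-box CANNTG. Each window runs from 250 bases before to 50 after the RefSeq start in build GRCm38.p6, on the gene's own strand, with every CANNTG in capitals. The windows are chr2:79456587-79456886 on the minus strand for Neurod1, chr3:102009895-102010194 on the plus strand for Nhlh2, chr14:104467950-104468249 on the minus strand for Pou4f1 and chr2:79707530-79707829 on the plus strand for Ppp1r1c.
Neurod1: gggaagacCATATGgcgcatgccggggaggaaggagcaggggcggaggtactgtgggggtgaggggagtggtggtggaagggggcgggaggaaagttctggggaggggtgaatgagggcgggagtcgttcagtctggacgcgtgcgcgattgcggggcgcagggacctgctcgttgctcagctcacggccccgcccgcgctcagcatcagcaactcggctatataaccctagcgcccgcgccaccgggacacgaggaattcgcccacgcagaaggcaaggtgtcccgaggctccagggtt
Nhlh2: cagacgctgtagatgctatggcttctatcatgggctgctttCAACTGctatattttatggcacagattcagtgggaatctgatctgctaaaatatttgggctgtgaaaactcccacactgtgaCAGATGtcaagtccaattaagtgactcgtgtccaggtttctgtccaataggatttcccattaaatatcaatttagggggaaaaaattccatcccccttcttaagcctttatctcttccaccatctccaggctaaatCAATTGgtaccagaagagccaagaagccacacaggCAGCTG
Pou4f1: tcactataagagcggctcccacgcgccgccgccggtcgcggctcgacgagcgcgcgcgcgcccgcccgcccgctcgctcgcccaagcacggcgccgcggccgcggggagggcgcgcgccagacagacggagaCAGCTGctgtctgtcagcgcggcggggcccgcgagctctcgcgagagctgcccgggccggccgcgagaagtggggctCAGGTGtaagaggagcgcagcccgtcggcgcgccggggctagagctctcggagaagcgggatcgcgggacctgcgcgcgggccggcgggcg
Ppp1r1c: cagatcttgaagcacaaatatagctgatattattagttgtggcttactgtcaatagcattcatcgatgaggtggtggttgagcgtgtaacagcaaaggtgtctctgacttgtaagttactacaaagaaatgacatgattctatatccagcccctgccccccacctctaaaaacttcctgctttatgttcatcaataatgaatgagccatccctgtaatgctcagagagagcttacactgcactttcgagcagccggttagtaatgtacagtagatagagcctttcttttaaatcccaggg
The motif reads the same on both strands, and it was found 1 time for Neurod1, 4 times for Nhlh2, 2 times for Pou4f1 and 0 times for Ppp1r1c. It stood in 72.3% of all 32851 promoter windows of the table and in 19 of the 29 windows (65.5%) that matched 22 of the 33 tested genes of the neuron and sensory neurogenesis lists. CAGATG, 1 of the sequences that CANNTG covers, searched on both strands, was found in 24.1% of those windows and in 17.2% of all windows. A match describes the letters only.

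Most of the genes that mark sensory neurogenesis lay lower in the knockouts. Of the 20 listed genes 16 were on the arrays and 15 were tested, and 13 of the 15 had a negative change, with a median of -1.11 (-1.19 without knockout 1). In 10 of the 15 the 3 knockout arrays lay below all 3 controls, against 617 of all genes tested (4.15%), and the 3 transcription factors above were the ones called. This list and those below were chosen with earlier results of these data known, so their counts describe and do not test. Members also varied together: over the 24 arrays Neurog1 and Nhlh2 had a Pearson correlation with Neurod1 of 0.98 and 0.96. A gene that is near background outside the proximal mandible controls can pass the filter through them alone, and Pou4f1 was below the 30th percentile in 18 of the 24 arrays, all but these controls and the proximal maxilla knockouts.

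Neurog1, the proneural factor that starts this programme in the trigeminal and vestibulocochlear ganglia of the mouse, read 7.30, 6.75 and 6.04 in the controls and 4.28, 4.92 and 4.18 in the knockouts. The groups did not overlap, and the difference was -2.24 (SE 0.50, limma adjusted p = 0.243, and -2.15 without knockout 1). Over the 19 alternatives to the main fit the change of Neurog1 ran from -2.60 to -1.14. Prrxl1, also called Drg11, a homeodomain factor of nociceptive neurons, read 8.50, 8.05 and 7.67 in the controls against 5.93, 6.33 and 6.30 in the knockouts (difference -1.89, SE 0.46, adjusted p = 0.459, and -1.76 without knockout 1).
Isl1, the LIM homeodomain factor of sensory and motor neurons, read 10.85, 10.51 and 9.72 in the controls and 9.31, 9.09 and 9.10 in the knockouts, again without overlap and -1.20 apart (SE 0.39). Insm1, a zinc finger factor of newly born neurons, differed by -1.16 (SE 0.39) and Nhlh1, the relative of Nhlh2, by -1.11 (SE 0.37). None of these passed after adjustment in limma. The genes of the list that differed least were Neurog2, at background in the 6 arrays, and Eya1, Eya2, Runx1 and Runx3, with changes between -0.14 and 0.15. Eya1 and Eya2, which placodes express, and Runx1 are also expressed in cells outside neurons. Whether this bears on their small changes was not tested.

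**Figure D2:**
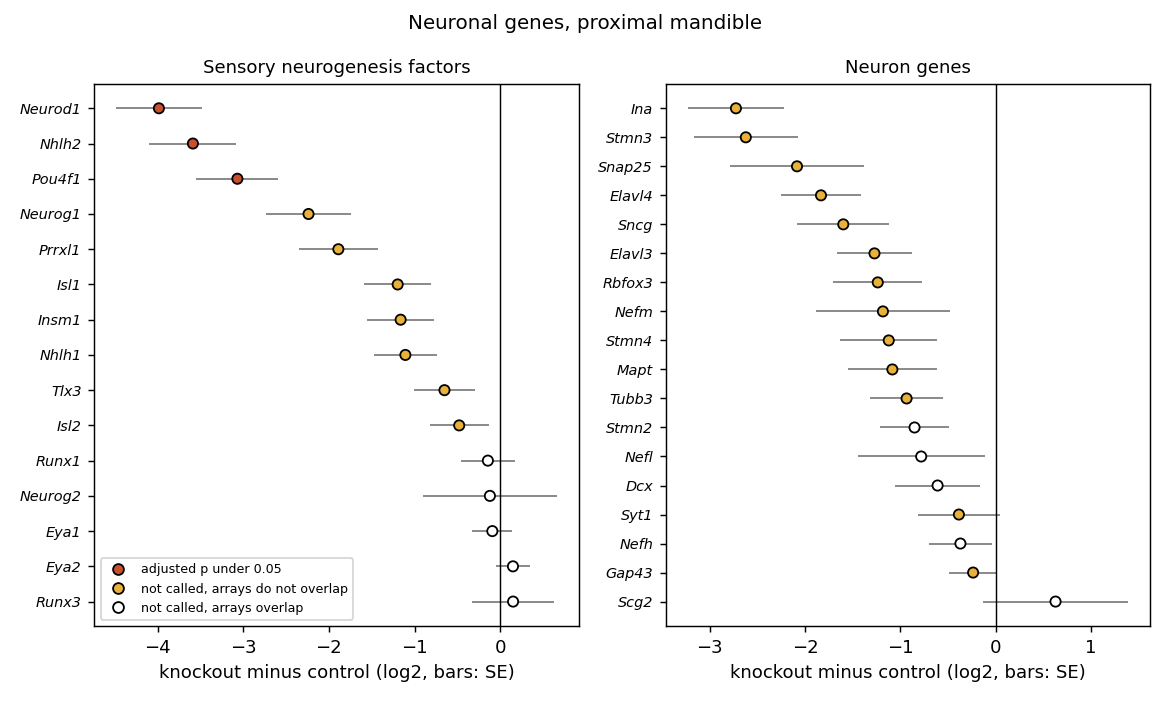
Change (knockout minus control, log2) of the 15 sensory neurogenesis and 18 neuron genes tested in proximal mandible, with the limma SE as bars. Red marks the 3 called genes, yellow marks genes not called whose arrays do not overlap, and white marks overlapping arrays. The points run from -3.98 for Neurod1 to 0.63 for Scg2.

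None of the 18 genes of differentiated neurons tested was called. Their median change was -1.10 (-1.01 without knockout 1), 17 of 18 were negative, and in 13 of 18 the knockouts lay below all controls, against 4.15% of all genes tested. Ina showed the largest fall of the list, while the cytoskeletal genes Tubb3 and Nefl, given below, fell by less than the list median. Ina, the intermediate filament alpha-internexin, read 10.33, 9.62 and 9.23 in the controls and 6.83, 7.68 and 6.48 in the knockouts (difference -2.72, SE 0.51, limma adjusted p = 0.0637). Stmn3, a stathmin that regulates microtubules, read 11.18, 10.46 and 9.98 in the controls and 7.96, 8.60 and 7.19 in the knockouts (difference -2.62, SE 0.54, adjusted p = 0.134). The 3 knockout arrays stayed above the 30th percentile for both genes. Elavl4, the neuronal RNA-binding protein HuD, read 10.72, 10.24 and 9.81 in the controls and 8.94, 8.46 and 7.87 in the knockouts (difference -1.83, SE 0.42, adjusted p = 0.276).

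The bright axonal genes stood far above background in all 6 arrays. Nefm, the medium neurofilament, read 12.14, 11.81 and 11.30 in the controls and 10.30, 10.83 and 10.58 in the knockouts (difference -1.18, SE 0.70). Nefl, the light neurofilament, read 12.68, 12.39 and 11.85 in the controls and 11.32, 11.37 and 11.89 in the knockouts, where knockout 3 reached the lowest control (difference -0.78, SE 0.67). Gap43, a growth cone protein, differed by -0.24 (SE 0.25), and Tubb3, the neuronal beta-tubulin, by -0.93 (SE 0.38). Scg2, a granin of secretory vesicles, was the only gene of the list with a positive change, 0.63 (SE 0.77), and 0.07 without knockout 1.

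Slc17a6, Prph, Scn9a and Ppp1r17 are known from neurons but lie outside the neuron list. They were named for their large or low-p differences without overlap, and none of them was called. Slc17a6, the vesicular glutamate transporter VGLUT2, read 8.04, 7.53 and 7.11 in the controls and 4.04, 4.80 and 4.36 in the knockouts, where all 3 arrays were at background (difference -3.16, SE 0.60, limma adjusted p = 0.0674, and -2.98 without knockout 1). Prph, the intermediate filament peripherin of peripheral neurons, read 9.64, 8.85 and 8.90 in the controls and 5.55, 7.20 and 5.47 in the knockouts (difference -3.06, SE 0.63, adjusted p = 0.134, and -2.80 without knockout 1). Scn9a, the sodium channel of nociceptors, read 8.96, 8.28 and 8.19 in the controls and 5.23, 6.17 and 5.37 in the knockouts (difference -2.89, SE 0.59, adjusted p = 0.132, and -2.71 without knockout 1). Knockout 2 was the highest knockout array for all 3 of these genes. Over the 19 alternatives to the main fit, their smallest falls were -2.16 for Slc17a6, -0.80 for Prph and -1.46 for Scn9a. Each of these lay outside the range given by leaving out 1 array. Ppp1r17, another phosphatase inhibitor, read 9.23, 8.37 and 7.74 in the controls and 5.10, 5.96 and 5.36 in the knockouts (difference -2.98, SE 0.56, adjusted p = 0.0674, and -2.79 without knockout 1). Onecut2, a homeodomain factor found in neurons, was named for its differences of effect between regions and differed by -2.65 (SE 0.65, adjusted p = 0.455). Of the neuron list described above, Snap25, a protein of synaptic vesicle fusion, differed by -2.08 (SE 0.70) and Sncg, gamma-synuclein, by -1.60 (SE 0.48).

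Genes of the crest-derived glia showed no common direction. Of 12 Schwann cell and glia genes tested 5 were positive and 7 negative, 0 were called, and the median change was -0.06 (0.07 without knockout 1). Sox10, the transcription factor of crest and glia, read 10.17, 10.23 and 9.80 in the controls and 9.71, 10.07 and 9.86 in the knockouts (difference -0.18, SE 0.24). Erbb3, the neuregulin receptor of Schwann cell precursors, read 11.10, 11.09 and 10.70 in the controls and 10.98, 11.12 and 11.21 in the knockouts (difference 0.14, SE 0.19). The groups overlapped for both. Fabp7, a fatty acid binding protein of immature glia, was the 1 gene of the 12 without overlap, with 11.40, 11.16 and 10.86 in the controls and 9.41, 10.65 and 9.92 in the knockouts (difference -1.15, SE 0.83, limma adjusted p = 1.00). Over all genes tested, 4.15% lay lower and 5.30% higher without overlap, so 1 of 12 is near those shares. Whether glial and neuronal genes differ in their change was not tested. Among 11 neurotrophin and GDNF family genes 8 were positive and 3 negative, with a median of 0.13 and 0 called. Gdnf, a survival factor for peripheral neurons, read 6.80, 6.87 and 6.73 in the controls and 7.40, 7.29 and 7.11 in the knockouts, without overlap (difference 0.47, SE 0.17, adjusted p = 1.00). Nrtn, the related ligand neurturin, differed by 0.63 (SE 0.24), with knockout 2 inside the control range.

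Epithelial genes lay higher in the knockouts, though none was called. All 17 tested had a positive change, with a median of 0.94, and in 9 of 17 the 3 knockout arrays lay above all 3 controls, against 789 of all genes tested (5.30%). Sox2, the gene with the smallest change, turned negative when each array was centred on its median. The arrays did not contribute evenly. Control 3 was the lowest array for 16 of the 17 genes in the plot of epithelial levels, and without it the median was 0.57. Without knockout 1 it was 0.79, with 15 of 17 positive.

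Krt8, a keratin of simple epithelium, read 8.86, 9.03 and 7.92 in the controls and 9.48, 9.61 and 12.27 in the knockouts, so that knockout 3 alone lay far above the rest (difference 1.85, SE 0.61, limma adjusted p = 1.00, and 0.94 without knockout 3). Its partner Krt18 read 8.59, 8.56 and 8.17 in the controls and 9.21, 9.23 and 11.25 in the knockouts (difference 1.46, SE 0.50), and Krt19 was also highest in knockout 3, at 11.10. Epcam, an adhesion molecule of epithelium, read 10.66, 10.97 and 9.81 in the controls and 11.70, 11.08 and 11.61 in the knockouts (difference 0.98, SE 0.40). For Epcam knockout 3 did not stand out. A second Epcam probe set read 8.69, 8.62 and 8.14 in the controls and 8.84, 8.44 and 8.81 in the knockouts. Its groups overlapped, and it differed by 0.21 (SE 0.19).
Cdh1, E-cadherin, differed by 0.94 (SE 0.42) and Cldn7, a tight junction claudin, by 1.09 (SE 0.48), both without overlap. The basal keratin Krt14 gave another order of arrays. Krt14 read 9.74, 10.29 and 8.95 in the controls and 11.98, 9.08 and 9.49 in the knockouts, high in knockout 1 only, and its change of 0.52 (SE 0.72) was -0.38 without knockout 1. The change of Krt5, another basal keratin, stayed positive when 1 array was left out, at 0.40 to 1.60. Genes outside the list with higher, non-overlapping values included Marveld3, a tight junction protein (1.28, SE 0.34, adjusted p = 0.683), Scel, a protein of the cornified envelope (1.46, SE 0.48, adjusted p = 1.00), and Serpinb6b, a protease inhibitor (1.16, SE 0.24, adjusted p = 0.134), whose control arrays were all below the 30th percentile. The other probe sets of Marveld3 differed by 0.17 and 0.04, and lay below the 30th percentile in 18 and 21 of the 24 arrays.

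**Figure D3:**
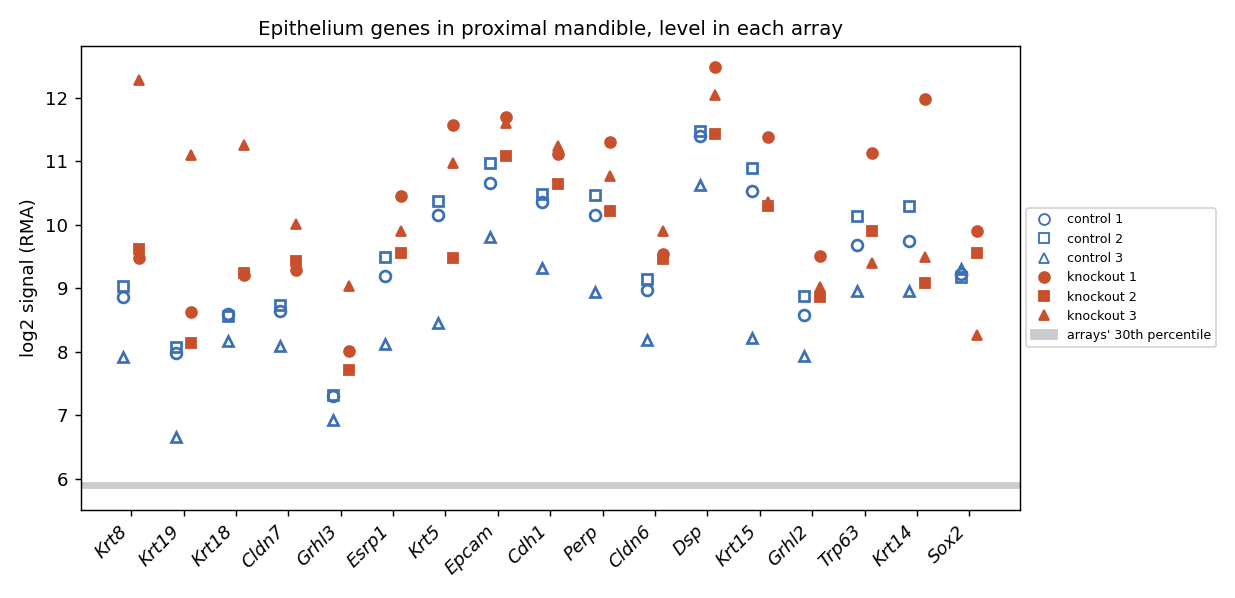
Level (log2 signal) of the 17 epithelium genes tested in each proximal mandible array, ordered by change from the left, with open symbols for controls and filled symbols for knockouts. Krt8, Krt19 and Krt18 were highest in knockout 3, at 11.10 to 12.27, and Krt14 in knockout 1, at 11.98.

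The 4 other called genes changed by small amounts with tight replicates. The probe sets used gave the same direction in all 4 regions, although those of Mpg disagreed among themselves. The other regions had 20 called genes (0.134%) in the distal mandible, 859 (5.77%) in the proximal maxilla and 3 (0.0202%) in the distal maxilla. H2az2, which encodes a variant of histone H2A.Z and hosts the insertion of a widely used Wnt1-Cre transgene, read 13.59, 13.65 and 13.60 in the controls and 12.88, 13.19 and 13.14 in the knockouts. It fell by 0.54 (SE 0.085, limma adjusted p = 0.0185), and its second probe set fell by 0.89. The changes in the distal mandible, proximal maxilla and distal maxilla were -0.54 (adjusted p = 0.0140), -0.63 (adjusted p = 0.00156) and -0.55 (adjusted p = 0.0275). Its close relative H2az1 differed by -0.10 (SE 0.11) and was not called. All 6 H2A variant genes tested had a negative change, with a median of -0.11, but without knockout 1 or without control 2 a member turned positive.

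2610524H06Rik, a gene on chromosome 5 with no role given here, read 9.99, 10.07 and 10.03 in the controls and 10.70, 10.51 and 10.58 in the knockouts. It rose by 0.57 (SE 0.093, limma adjusted p = 0.0214), and by 0.57 to 0.68 in the other regions, with adjusted p from 0.00156 to 0.0140. Zfp33b, a zinc finger gene also on chromosome 5, read 8.41, 8.42 and 8.52 in the controls and 7.90, 7.85 and 7.86 in the knockouts, and fell by 0.58 (SE 0.097, adjusted p = 0.0214). In these genes the gap between the groups was wider than the range within either group.
Mpg, on chromosome 11, which encodes an enzyme that removes alkylated DNA bases, read 9.68, 9.73 and 9.65 in the controls and 10.04, 10.12 and 10.11 in the knockouts, a rise of 0.41 (SE 0.067, adjusted p = 0.0214). Its 3 probe sets disagreed: the others differed by -0.41 and -0.02, and the mean of the 3 by -0.0086, so no direction can be given for the gene. H2az2 and Mpg both lie on chromosome 11.

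The lists of jaw patterning genes moved with knockout 1. The 13 proximal jaw mesenchyme genes tested had a median of -0.17 with 11 negative, and 0.07 without knockout 1. The 12 distal genes had a median of 0.09, and -0.11 without it. Endothelin and Dlx genes, which set the lower jaw programme, had a median of -0.25 over 13 genes and 0.06 without knockout 1, and Dlx4 read 8.37, 8.46 and 8.52 in the controls and 5.82, 8.35 and 8.32 in the knockouts. Bone genes likewise had a median of 0.24 over 9 genes and -0.01 without it, cartilage genes 0.21 over 18 and -0.04, and Wnt pathway genes 0.24 over 20 and 0.03. No gene of these lists was called.

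Smaller differences were seen in other lists. All 15 hypoxia and glycolysis genes tested had a positive change, with a median of 0.12, 14 of them positive without knockout 1, and in 4 of 15 the knockouts lay above all controls, against 5.30% of all genes tested. Adm, the hypoxia-induced peptide adrenomedullin, read 6.47, 6.51 and 6.59 in the controls and 6.79, 6.93 and 6.77 in the knockouts (difference 0.31, SE 0.16, limma adjusted p = 1.00). Of 19 cell cycle genes 18 had a negative change, but the median was -0.07 and -0.02 without knockout 1. Scx, the transcription factor of tendon progenitors and a gene that TGF-beta signalling maintains in the mouse, read 8.18, 8.05 and 8.26 in the controls and 7.18, 7.44 and 7.63 in the knockouts. Its groups did not overlap and differed by -0.75 (SE 0.35, adjusted p = 1.00), and by -0.63 without knockout 1. Thbs4, a matrix protein of tendon, differed by -0.41 (SE 0.56), also without overlap, while the 12 tendon genes had a median of 0.21 with 10 positive. In 2 of the 12 the knockouts lay below all controls, against 4.15% of all genes tested. In 3 they lay above all controls, against 5.30%, among them Egr1 (0.52, SE 0.35) and Col12a1 (0.25, SE 0.28). Fos, an immediate early gene that also reacts to tissue handling, read 8.64, 8.62 and 8.46 in the controls and 8.93, 8.93 and 11.32 in the knockouts, so knockout 3 was again the array apart (difference 1.15, SE 0.42). The 25 skeletal muscle genes had a median of 0.10 and the 16 endothelial genes of 0.0017, with 0 called in either.

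**Figure D4:**
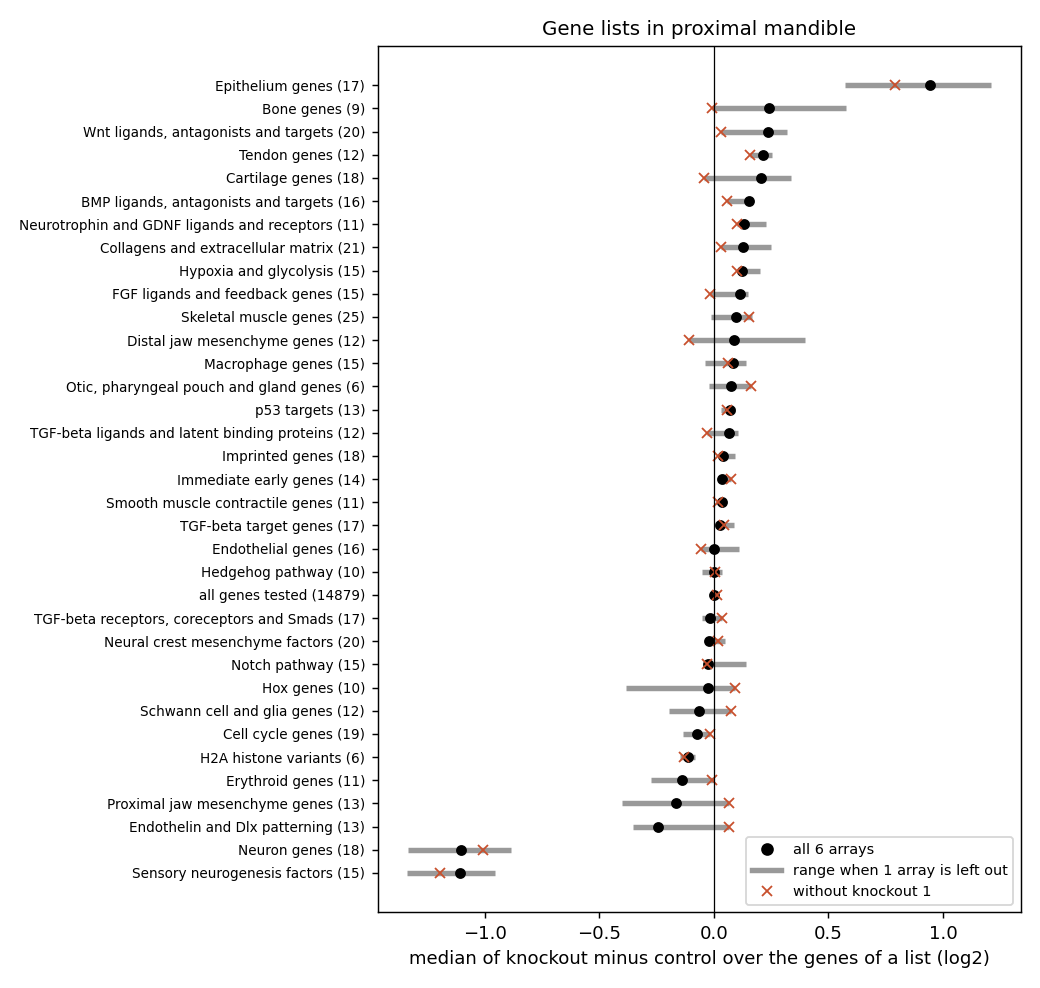
Median change (knockout minus control, log2) of each gene list in proximal mandible, with the number of genes tested in brackets. Black points use all 6 arrays, grey bars span the medians when 1 array is left out and red crosses leave out knockout 1. The neuron and sensory neurogenesis lists lay near -1.1 and the epithelium list at 0.94.

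The last comparison asked whether the knockout effect in the proximal mandible differed from that in the other regions. Relative to the distal mandible 0 genes were called, with 774 (5.20%) at an unadjusted p under 0.05, and both arms of this comparison hold a knockout array 1 that stood apart. Without those arrays 0 genes were called and 273 of the 14879 had an unadjusted p under 0.05. Relative to the proximal maxilla 104 genes (0.699%) were called, 41 with a higher and 63 with a lower effect. Relative to the mean effect of the other 3 regions 9 genes (0.0605%) were called, all with a lower effect, and 754 (5.07%) had an unadjusted p under 0.05. That mean includes the effect in the proximal maxilla. The 9 were Pou4f1, Ppp1r1c, Ppp1r17, Prph, Onecut2, Neurod1, Sncg, Ina and Prrxl1, whose roles are given above. Without knockout 1 the 104 calls became 39 and the 9 became 2. Of the 9, Neurod1, Pou4f1 and Ppp1r1c were also called in the proximal mandible itself. The control arrays numbered 2 shared the Y-linked signal in all 4 regions. The labels do not say whether arrays with the same number share an embryo, and the test takes them as independent.

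Several of these genes moved in opposite directions at the proximal ends of the jaws. Pou4f1 read 8.88, 8.37 and 8.05 in proximal mandible controls and 5.26, 5.25 and 5.43 in proximal maxilla controls, and 5.14, 5.51 and 5.44 against 11.41, 11.29 and 8.50 in the respective knockouts. The arrays with high levels were thus the mandible controls and the maxilla knockouts. The effect was lower in the proximal mandible than in the proximal maxilla by 8.15 (SE 0.68, limma adjusted p = 3.11e-06), and the difference from the mean of the other 3 regions was -4.73 (SE 0.55, adjusted p = 0.00122). Ppp1r1c followed the same order, with 12.45, 12.16 and 9.52 in the proximal maxilla knockouts and 5.65 to 5.92 in their controls.

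Neurod1 differed from these in the maxilla. All 12 maxilla arrays were high, between 10.40 and 12.16, in both genotypes, and in the distal mandible both genotypes were low, at 5.16 to 6.86 in controls and 4.93 to 6.05 in knockouts. In the proximal mandible all 3 control arrays were high, while 2 of the 3 knockout arrays were below the 30th percentile and knockout 2 just above it. Its effect differed from the mean of the other 3 by -4.07 (SE 0.58, limma adjusted p = 0.00625). The neuron list was summarised as a score, in which each gene is set against its own mean over the 24 arrays and the deviations are averaged. Scores were 0.80, 0.37 and 0.05 in proximal mandible controls, -0.63, -0.62 and -0.92 in proximal mandible knockouts, and -1.58, -1.07 and -1.61 in distal mandible controls. They were 3.08, 2.71 and 1.00 in the knockouts of the proximal maxilla and -0.01, 0.39 and 0.30 in its controls. The median change of the neuron list was 0.25 in the distal mandible, 1.66 in the proximal maxilla and 0.19 in the distal maxilla.

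The epithelium list ran the other way at the proximal ends, with a median change of 0.94 in the mandible and -1.29 in the maxilla, and 0.11 at each distal end. Krt8 read 11.83, 11.76 and 11.77 in proximal maxilla controls and 8.44, 9.27 and 11.08 in proximal maxilla knockouts, so there too knockout 3 was the highest knockout array. The difference of its effects was 4.04 (SE 0.86, limma adjusted p = 0.0364). Knockout array 3 of the proximal maxilla had at once the lowest Pou4f1, the lowest neuron score and the highest Krt8 of its group. Without that array 1423 genes were called in the difference from the proximal maxilla, against 104 with it. Leaving out any other array of these 4 groups gave 20 to 163 calls, and leaving out the control arrays numbered 2 gave 5.

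**Figure D5:**
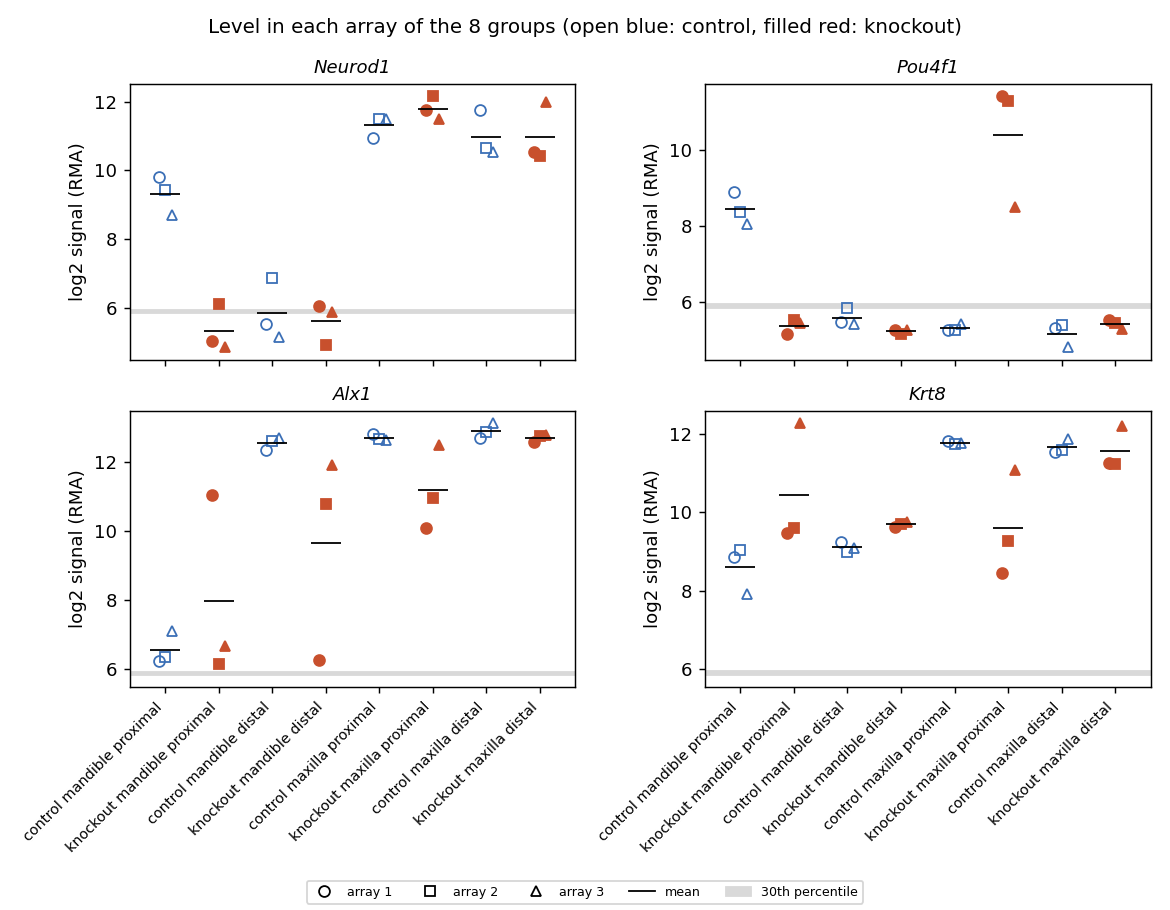
Level (log2 signal) of Neurod1, Pou4f1, Alx1 and Krt8 in each array of the 8 groups, with open blue symbols for controls, filled red symbols for knockouts, bars for group means and a grey band for the range of the arrays' 30th percentiles. Pou4f1 was above background in proximal mandible controls and proximal maxilla knockouts, and Alx1 read 11.06 in knockout 1 of the proximal mandible and 6.26 in knockout 1 of the distal mandible.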

How the data were processed

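Biotin-labelled cRNA from 24 tissue samples was hybridised to single-colour arrays with 45101 probe sets. The deposited values are log2 signals, which the authors made with RMA (its version is not stated in the processing notes of the submitters); no scanner files were used here. Values ran from 2.97 to 14.70 with 0 missing, array medians from 7.26 to 7.38, and any 2 of the 6 arrays differed by a root mean square of at least 0.205, so no array repeated another.

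Probe sets with 1 symbol in the platform annotation (34945) were used, 34741 of them updated by Entrez number to a RefSeq gene table, and 932 with several symbols and 9160 with none were not named. For each of 18193 genes the probe set with the highest mean was kept. Genes above their array's 30th percentile in at least 3 arrays were tested. Limma 3.58.1 in R 4.3.3 fitted 8 group means to all 24 arrays (16 residual degrees of freedom), two-sided, with Benjamini-Hochberg adjustment over all genes tested and a threshold of 0.05. The number of arrays limits the precision, and the median SE of a change was 0.108.

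The arrays compared and the gene lists were chosen with earlier results of these data known. Genes were named by rule: Tgfbr2, H2az2, the called genes, those with the smallest p or largest change among genes whose groups did not overlap, and the leading members of lists and differences. List members given as examples beyond the rule, and the promoters, were chosen after their values were seen. Alternatives covered centring, cyclic loess, filters, probe set choice, priors, array weights, blocks and leaving out arrays. The fit was tested on simulated data.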

Additional observations from a re-analysis of the deposited data

Results flagged for a closer look

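For the difference of the knockout effect from the proximal maxilla, limma called 104 genes (0.699%). The 10 given here were picked from those calls as the largest each way. The effect in the proximal mandible was higher for Elf5 by 4.54, Krt8 by 4.04, Macc1 by 3.47, Krt18 by 3.38 and Cldn7 by 3.18, all genes expressed in epithelium. For neuronal genes it was lower, with a difference of -8.61 for Ppp1r1c, -8.15 for Pou4f1, -7.70 for Ppp1r17, -6.70 for Onecut2 and -6.45 for Prph. Relative to the mean of the other 3 regions, which includes the proximal maxilla, the differences were -4.73 for Pou4f1, -4.71 for Ppp1r1c, -4.49 for Ppp1r17, -4.21 for Prph and -4.18 for Onecut2.

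Among 5626 tested probe sets to which the platform annotation gives no single symbol, 3 were called by limma, all higher in the knockouts. Their adjusted p come from a separate fit to all probe sets that passed the filter, array controls aside. The adjustment there was over those probe sets and not over the 14879 genes. Probe set 1420491_at read 7.34, 7.49 and 7.61 in the controls and 9.59, 9.43 and 9.41 in the knockouts, a rise of 2.00 (SE 0.089, adjusted p = 2.86e-10). Probe set 1443153_at rose by 2.02 (SE 0.11, adjusted p = 9.40e-09), from values of 4.94 to 5.04, which is background. Probe set 1442262_at rose by 1.85 (SE 0.27, adjusted p = 0.0108). The genes these probe sets measure are not known here.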

How the results depend on the processing

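The 8 genes called became 0 with the 6 arrays fitted alone, 294 with array weights, 0 without the knockout mandible arrays numbered 1 at both ends, 0 without the control arrays numbered 2, and 0 to 17 when 1 array was left out. For the difference from the distal mandible (0 called) the counts were 1 with only the groups compared, 87 with array weights and 0 to 3 with 1 array left out. For the difference from the proximal maxilla (104) they were 10, 2194 and 20 to 1423, then 229 with genotype and number as a random replicate block, 23 without the knockout mandible arrays 1 and 5 without the control arrays 2. For the difference from the other 3 regions (9) they were 748 with array weights, 15 with that block, 2 to 319 with 1 array left out, and 2 without either of those sets of arrays. In the proximal mandible, correlations of deviations between same-numbered controls and knockouts were 0.14, -0.15 and -0.04. These cannot show whether same-numbered arrays of different regions are paired. The consensus correlation of the random block of genotype and number, over all regions, was 0.158. With the replicate block in the fit, 9 genes were called in the proximal mandible with the number as a fixed term and 8 as a random block, and the 8 calls stayed. Neurod1 was called under 14 of 19 alternatives, with changes from -4.40 to -3.74 and adjusted p up to 0.109. Signs turned for Mpg (-0.0086, mean of its probe sets), Krt14 (-0.13 with array weights, -0.38 to 1.07 when 1 array was left out, the lowest without knockout 1), Tgfb2 (0.012, mean of probe sets), Tgfb3 (-0.039 with array weights, -0.056 to 0.12 with 1 array left out), Alx1 (-0.14 to 2.31) and Gbx2 (-1.78 to 0.12), both turned by leaving out knockout 1, and Tgfb1 (-0.072 to 0.39). The causes were not tested. Changes to values below an array's 30th percentile are limited by background.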
